A study of Mus musculus with 21 samples.

Results

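The genes described here are 34 genes of cholesterol and fatty acid synthesis and of the SREBP pathway that controls them. They were taken from the counts table by symbol, and 34 of 34 were found among its 24498 genes. All 34 were among the 14578 genes that passed the filter on low counts. They were split by role into 20 sterol genes, 6 regulators and 8 fatty acid genes. RNA was sequenced from the hippocampus of male mice of 8 weeks, without regard to cell type. Mice received ethanol by intraperitoneal injection, 2 g per kg as a 20% solution in saline, and 1 arm also received a short hairpin RNA against Acss2, the enzyme that turns acetate into acetyl-CoA. The hairpin was driven by the U6 promoter in an adeno-associated virus of type AAV2/9 that also carried EGFP under the CMV promoter. The sample protocol places the injection in the dorsal hippocampus, the series text may mean a systemic one, and neither describes a control vector or the time from ethanol to dissection. The 4 groups of ethanol libraries compared were 4 libraries of dorsal hippocampus with the knockdown vector, 3 dorsal controls, 3 of ventral hippocampus with the knockdown vector and 4 ventral controls. A single knockdown library of total hippocampus was described without a test. All 15 libraries came from mice given ethanol, so the values say nothing about ethanol itself. The labels do not tie replicates to separate animals, and p-values therefore measure only the spread between these libraries.

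Cholesterol in the brain is made locally, because the blood-brain barrier holds back lipoprotein cholesterol, and astrocytes and oligodendrocytes are its main producers in the adult. Synthesis starts from acetyl-CoA and runs through mevalonate, farnesyl pyrophosphate, squalene and lanosterol. Fatty acid synthesis draws on the same acetyl-CoA, which acetyl-CoA carboxylase turns into malonyl-CoA for fatty acid synthase. SREBP-2, encoded by Srebf2, mainly drives the sterol genes, and SREBP-1, encoded by Srebf1, mainly the fatty acid genes. The protein Scap escorts both from the endoplasmic reticulum to the protease encoded by Mbtps1, and the proteins of Insig1 and Insig2 hold Scap back when sterol is plentiful.

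Levels differed more between genes than between groups. Read counts scaled to a library of 1000000 (CPM) were divided by the summed length of each gene's exons in kilobases, which allows genes to be compared with each other. Over the 14 tested libraries Scd2, a stearoyl-CoA desaturase abundant in brain, had the highest length-scaled level at 226 CPM per kb. It was followed by the fatty acid desaturase Fads1 at 49.0, the HMG-CoA synthase Hmgcs1 at 45.2, the other desaturases Scd1 at 42.0 and Fads2 at 32.7, and the fatty acid synthase Fasn at 27.4 CPM per kb. The median length-scaled level was 30.1 CPM per kb over the fatty acid genes, 14.1 over the regulators and 7.12 over the sterol genes. Srebf2 stood at 26.4 CPM per kb, above Insig1 at 14.9, Scap at 14.8, Srebf1 at 13.4, Insig2 at 12.3 and Mbtps1 at 8.38. At the low end were the sterol transfer protein gene Stard4 at 1.96, the isopentenyl diphosphate isomerase Idi1 at 1.32 and Acacb, the mitochondrial acetyl-CoA carboxylase, at 1.11 CPM per kb. Acaca, the cytosolic acetyl-CoA carboxylase, stood at 2.62 CPM per kb on an exon length of 17.1 kb, the longest of the members.

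**Figure D1:**
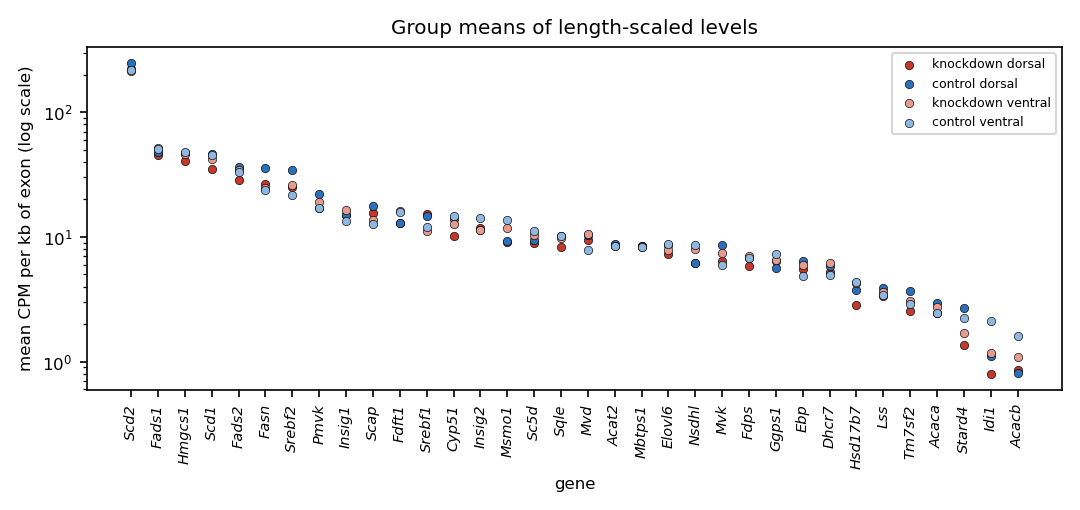
Mean level of each of the 34 genes in the 4 groups, in CPM per kb of exon on a log axis, ordered by the mean over 14 libraries. Scd2 stands above the other genes in all 4 groups, and Stard4, Idi1 and Acacb stand lowest.

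Part of the counts rests on sequence that other genes share. In exon sequence of the GENCODE M21 annotation (mm10), 86.4% of the 50-base stretches of Fdps, the farnesyl diphosphate synthase, also occur in other genes, mostly predicted ones. The share was 52.6% for Acaca, 45.9% for the acetyl-CoA acetyltransferase Acat2, whose copy is Acat3, 30.7% for the squalene synthase Fdft1 and 30.5% for Idi1. It was 13.6% for Hmgcs1, 13.1% for Scap and 11.8% for the geranylgeranyl diphosphate synthase Ggps1. Stretches were matched on either strand, and how far the sharing affects the counts of these 8 genes was not measured. Scd1 and Scd2 shared 4.66% and 4.01% of their stretches with other genes.

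SREBPs bind a short sterol regulatory element, usually beside a CCAAT box bound by NF-Y. A table of RefSeq promoters (GRCm38.p6, the patched form of mm10), from 250 bases before to 50 bases after the start of each gene, held 27 of the 34 genes. Some genes have several starts, and a gene was counted once if any of its windows matched. The letters TCACNCCA, read on both strands, occurred in 3 of these 27 genes (11.1%) and in 4.97% of 27025 genes. This motif was chosen after a longer form, TCACNCCAC, had matched 1 of 27. The letters CCAAT, also read on both strands, occurred in 15 of 16 sterol genes (93.8%), 4 of 6 regulators and 2 of 5 fatty acid genes, against 41.1% of all genes. The GC box letters GGGCGG occurred in 14 of 16, 6 of 6 and 1 of 5, against 38.2% of all genes, and the E-box letters CACGTG in 5 of 27, against 8.09%. The last letters of TCACNCCA can be the first of CCAAT, and in the 3 promoters below they are not. These 3 stretches are shown because they are the ones that hold TCACNCCA, each read on the strand of its gene, with that motif and any CCAAT (or ATTGG, its reverse) in capitals. A match is a description of letters and not a binding site.
Srebf2, chr15:82147077-82147144, plus strand: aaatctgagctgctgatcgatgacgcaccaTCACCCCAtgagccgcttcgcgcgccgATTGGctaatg
Hmgcs1, chr13:119690184-119690251, plus strand: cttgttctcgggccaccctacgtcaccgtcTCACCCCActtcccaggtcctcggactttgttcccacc
Msmo1, chr8:64733718-64733785, minus strand: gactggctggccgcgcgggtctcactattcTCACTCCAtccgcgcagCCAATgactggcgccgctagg
In the Srebf2 and Msmo1 stretches a CCAAT box in either orientation follows the motif. The Hmgcs1 stretch holds none, but its promoter has ATTGG at -176 and -45 from the gene start, outside the stretch. The Hmgcs1 motif itself starts at -137.

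The 15 libraries held 2819837 to 13240179 reads assigned to genes, and each member had at least 3 reads in every one of them, with Idi1 the lowest at 3 to 96 reads. The other 6 libraries, with 4279 to 221847 gene reads, were left out by the threshold of 1000000 gene reads. In 3 of the tested libraries the share of gene reads on the ribosomal RNA gene Rn45s was smallest, at 0.625% in ventral control 1, 1.08% in ventral knockdown 3 and 1.17% in dorsal knockdown 2, against 3.49% to 20.7% in the others. Long transcripts were low in 2 of them: the median deviation of the longest 25% of genes minus that of the shortest 25% was -0.75 (log2) in both dorsal knockdown 2 and ventral knockdown 3. In ventral control 1 the 25% of genes richest in G and C minus the poorest 25% gave -1.12 (log2). For each comparison the count of members is therefore also given without these 3 libraries. All neuron, astrocyte and oligodendrocyte markers were detected in every library.

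Acss2, the targeted gene (ENSMUSG00000027605.18, chr2:155517948-155585724, plus strand, mm10), stood at 44.3, 40.9, 18.02 and 19.3 CPM in the dorsal knockdown libraries and at 53.1, 58.7 and 52.9 CPM in the dorsal controls. The groups did not overlap, and dorsal knockdown 3 and 4 were the lowest. Its log2 fold change was -0.84 (SE 0.32) with an adjusted p of 0.964 (edgeR's quasi-likelihood test, Benjamini-Hochberg over all tested genes), so the lower level did not pass the threshold. In ventral hippocampus it stood at 28.9, 63.6 and 36.7 CPM with the knockdown vector and at 47.5 to 54.2 CPM in the controls, with overlap and a log2 fold change of -0.22 (SE 0.32).

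In dorsal hippocampus most members had lower means with the knockdown vector than in controls, but none passed the test. Over all genes 0% were called at an adjusted p under 0.05, and 0 of the 34 members were. At an unadjusted p under 0.05 667 genes stood in edgeR and 763 in DESeq2, which called 11 after adjustment, and 0 members were called by either tool. The log2 fold change was below 0 in 28 of 34 members, where 46.7% of all tested genes were below 0. By role these were 19 of 20 sterol genes, 7 of 8 fatty acid genes and 2 of 6 regulators. The median log2 fold change was -0.22 over the sterol genes, -0.25 over the fatty acid genes and 0.01 over the regulators, beside 0.03 over all tested genes. The 4 members Stard4, Mvk, Pmvk and Fads2 had every knockdown library below every control, where 3.25% of all genes did. Only Stard4 was lower at an unadjusted p under 0.05, where 1.19% of all genes were. In bulk tissue, fewer cells of a type and less RNA per cell cannot be told apart.

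**Figure D2:**
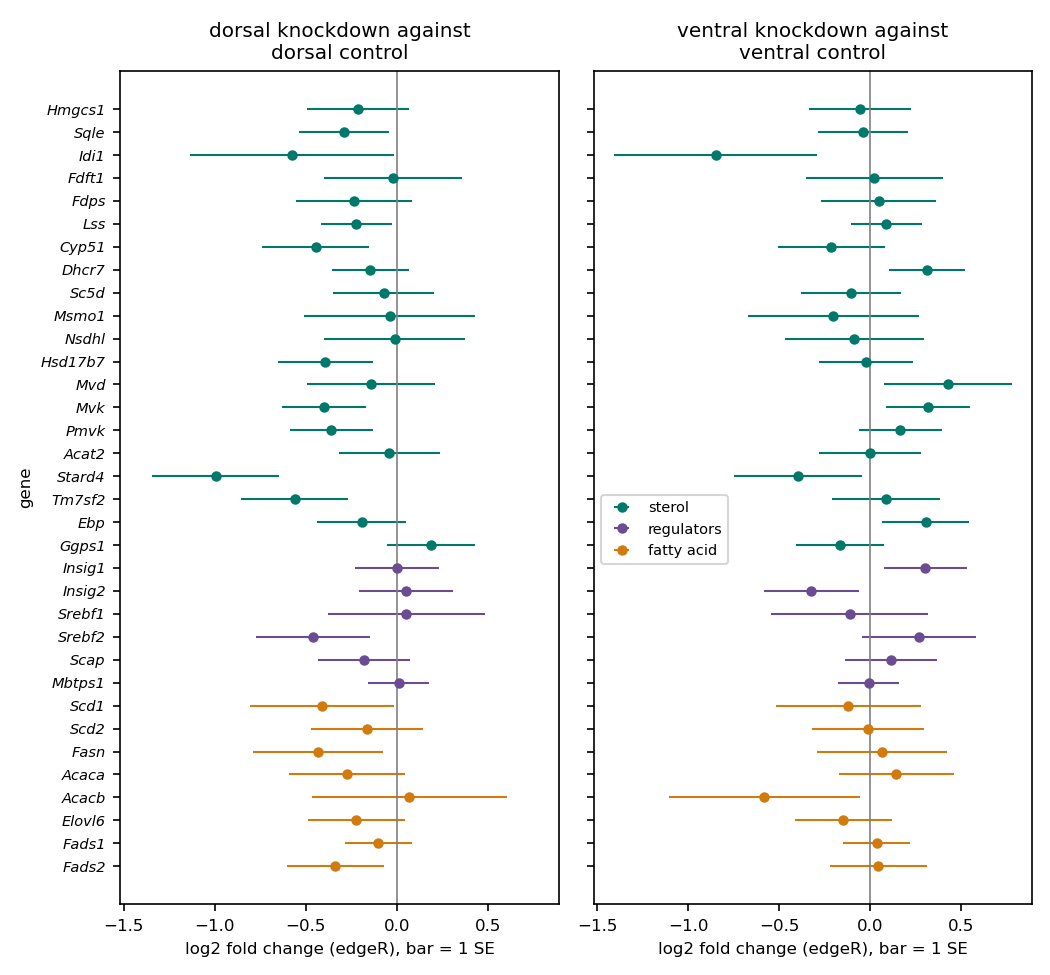
Log2 fold change of each gene with the knockdown vector against control (edgeR), with bars of 1 SE, in dorsal (left) and ventral hippocampus (right), coloured by role. On the left 28 of 34 points lie below 0 and Stard4 is the farthest from 0, and on the right 18 of 34 lie below 0.

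Stard4 (ENSMUSG00000024378.9) encodes a soluble carrier that moves cholesterol between membranes. It stood at 12.4, 7.28, 3.39 and 7.37 CPM in dorsal knockdown 1 to 4 and at 13.4, 16.9 and 14.8 CPM in the dorsal controls. The highest knockdown library lay just below the lowest control, and dorsal knockdown 3 was the lowest. The means were 7.60 ± 3.69 CPM (SD, n = 4) and 15.02 ± 1.76 CPM (SD, n = 3). The log2 fold change was -0.99 (SE 0.35, 95% interval -1.74 to -0.25) with an adjusted p of 0.955 in edgeR. Without the 3 libraries of smallest Rn45s share it was -0.98, and leaving out single libraries gave -1.33 to -0.75.

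The early enzymes of the mevalonate pathway come next. Mvk, mevalonate kinase (ENSMUSG00000041939.14, chr5:114444269-114460591, plus strand, mm10), stood at 15.7, 20.96, 17.6 and 14.9 CPM with the knockdown vector and at 22.7, 22.3 and 23.4 CPM in controls. Its controls had an SD of 0.57 CPM (n = 3) and lay above all 4 knockdown libraries, of which dorsal knockdown 2 came closest. Its log2 fold change was -0.40 (SE 0.23) with an adjusted p of 0.999 in edgeR. Pmvk, the phosphomevalonate kinase of the next step (ENSMUSG00000027952.16, chr3:89454541-89469013, plus strand), stood at 29.2, 34.2, 21.4 and 32.8 CPM against 38.8, 39.8 and 34.8 CPM. Dorsal knockdown 2 and control 3 were less than 1 CPM apart, so the absence of overlap was narrow, and the log2 fold change was -0.36 (SE 0.23). Hmgcs1, which makes HMG-CoA, stood at 249.6, 180.2, 117.3 and 200.5 CPM against 179.7, 230.7 and 239.8 CPM. The groups overlapped fully, with the highest value in dorsal knockdown 1, and the log2 fold change was -0.22 (SE 0.28), and -0.05 without dorsal knockdown 3.

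Later sterol steps showed the same lower means with overlap. Sqle, squalene epoxidase, an entry point to the sterol ring, stood at 47.0, 52.1, 33.2 and 51.8 CPM with the knockdown vector and at 46.8, 56.4 and 65.2 CPM in controls. Only dorsal knockdown 3 was below all controls, and the log2 fold change was -0.29 (SE 0.25). Tm7sf2, a sterol C14-reductase, stood at 11.1, 13.1, 8.19 and 12.3 CPM against 11.6, 18.7 and 18.5 CPM. Its overlap came from dorsal control 1 alone, and the log2 fold change was -0.56 (SE 0.29). The lanosterol demethylase Cyp51 had a log2 fold change of -0.45 (SE 0.29), the ketosteroid reductase Hsd17b7 one of -0.39 (SE 0.26), the lanosterol synthase Lss one of -0.22 (SE 0.20) and Idi1 one of -0.58 (SE 0.56). The choice of these last 4 was made with their values in view. The adjusted p of each sterol gene other than Stard4 was 0.999 in edgeR. The one sterol gene above 0 was Ggps1 at 0.19 (SE 0.24, and 0.06 without dorsal control 1), which leads away from sterols to the geranylgeranyl chains of proteins. The other sterol genes, Fdft1, Fdps, Dhcr7, Sc5d, Msmo1, Nsdhl, Mvd, Acat2 and Ebp, had group means of 12.9 to 56.2 CPM with the knockdown vector and of 14.8 to 57.5 CPM in controls, with overlap in each.

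Of the regulators, only Srebf2 and Scap were below 0. Srebf2 (ENSMUSG00000022463.8, chr15:82147181-82205379, plus strand) stood at 263.1, 97.1, 140.8 and 220.6 CPM with the knockdown vector and at 289.8, 230.3 and 226.9 CPM in controls. Of the knockdown libraries 3 of 4 lay below all controls, dorsal knockdown 2 by the most. Its log2 fold change was -0.46 (SE 0.31), and -0.25 without dorsal knockdown 2. Srebf1 stood at 67.1, 54.7, 128.5 and 94.2 CPM against 99.4, 87.9 and 62.8 CPM. Its groups overlapped with the highest value in dorsal knockdown 3, and its log2 fold change was 0.05 (SE 0.43). Insig1, itself a sterol-repressed SREBP target, stood at 40.0, 48.1, 44.1 and 53.8 CPM against 37.9, 53.1 and 47.9 CPM, with means of 46.5 and 46.3 CPM. Scap had a log2 fold change of -0.18 (SE 0.25), which was -0.02 without dorsal knockdown 2, and Insig2 one of 0.05 (SE 0.26), and Mbtps1 had means of 88.9 ± 10.03 CPM (SD, n = 4) and 88.5 ± 11.3 CPM (SD, n = 3).

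The fatty acid genes were lower mainly in dorsal knockdown 2. Fasn (ENSMUSG00000025153.9, chr11:120805846-120824547, minus strand) stood at 419.8, 143.1, 282.1 and 320.1 CPM with the knockdown vector and at 493.5, 301.7 and 384.9 CPM in controls. Dorsal knockdown 2 was far below all controls, dorsal knockdown 3 lay just below the lowest control and the other libraries overlapped. This gave a log2 fold change of -0.43 (SE 0.36), and of -0.20 without dorsal knockdown 2. Scd1 stood at 248.7, 90.4, 168.4 and 176.8 CPM against 259.5, 273.7 and 149.0 CPM, with a log2 fold change of -0.41 (SE 0.40) and of -0.19 without dorsal knockdown 2. Scd2 stood at 1481, 736, 1312 and 1355 CPM against 1464, 1542 and 1106 CPM. The Scd2 log2 fold change of -0.17 (SE 0.31) became 0.02 without dorsal knockdown 2. Dorsal knockdown 2 was thus the lowest of the 7 dorsal libraries for Fasn, Scd1 and Scd2.

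Fads2, the delta-6 desaturase (ENSMUSG00000024665.8, chr19:10062765-10101746, minus strand), stood at 107.2, 69.8, 104.1 and 95.9 CPM with the knockdown vector and at 133.3, 109.3 and 115.3 CPM in controls. The groups did not overlap, though dorsal knockdown 1 and control 2 differed by about 2 CPM. For Fads2 the log2 fold change was -0.34 (SE 0.27), and -0.21 without dorsal knockdown 2. Acacb stood at 7.12, 7.96, 8.63 and 9.37 CPM against 7.13, 9.15 and 7.23 CPM, with overlap and a log2 fold change of 0.07 (SE 0.54), the only fatty acid gene above 0. Acaca, the elongase Elovl6 and Fads1 had log2 fold changes of -0.27 (SE 0.32), -0.22 (SE 0.27) and -0.10 (SE 0.19), and without dorsal knockdown 2 that of Acaca was -0.06. Adjusted p was 0.999 for each fatty acid gene in edgeR.

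**Figure D3:**
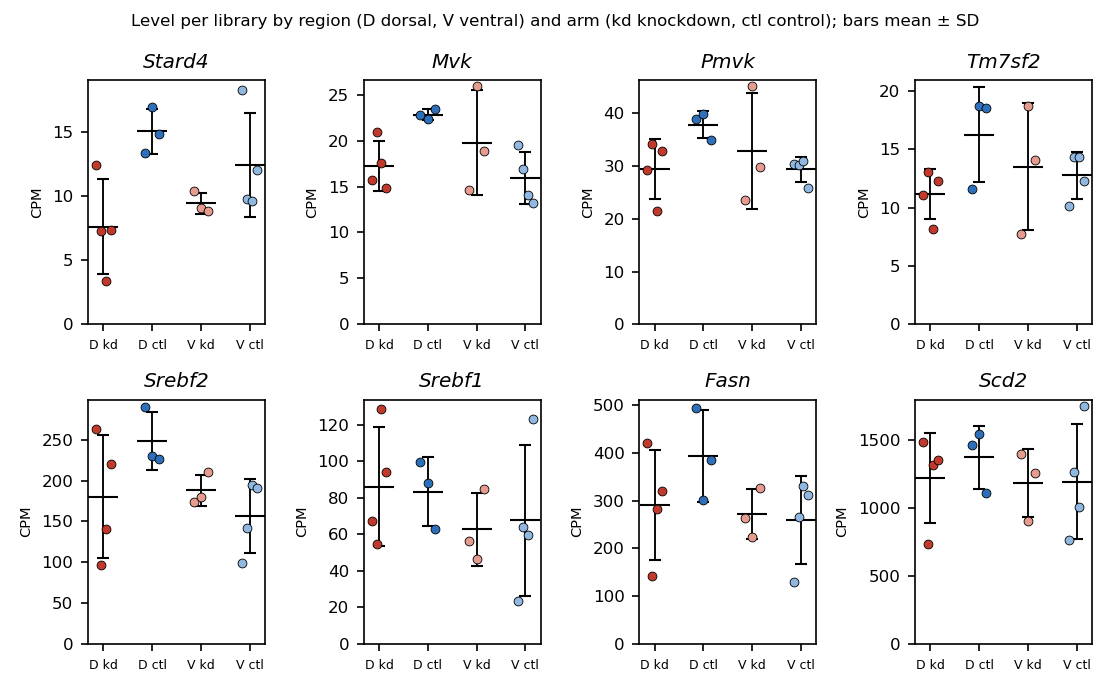
Level of 8 genes in CPM in each library, by region (D dorsal, V ventral) and arm (kd knockdown, ctl control), with bars for the mean and SD of each group. For Stard4, Mvk and Pmvk all dorsal knockdown points lie below the dorsal controls, and for Srebf1, Fasn and Scd2 the groups overlap.

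How many dorsal sterol genes were lower depended on single libraries. Leaving out dorsal control 3 gave 14 of 20 and leaving out dorsal knockdown 3 gave 15 of 20, while the other single libraries left up to 19. The sterol median ranged from -0.33 to -0.13 over these fits, and the fatty acid median was -0.09 without dorsal knockdown 2. Without the 3 libraries of smallest Rn45s share, 29 of 34 members and 19 of 20 sterol genes were lower, where 49.4% of all genes were, with medians of -0.27 for the sterol and -0.10 for the fatty acid genes. In that fit 6 sterol genes were lower at an unadjusted p under 0.05, where 2.42% of all genes were: Stard4, Mvk, Pmvk, Tm7sf2, Cyp51 and Hsd17b7. Their adjusted p ranged from 0.52 to 0.643 in edgeR, so 0 were called. With offsets that removed the relation of each library's counts to transcript length and GC content, the medians were -0.29 for the sterol and -0.17 for the fatty acid genes.

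Markers of microglia, reactive astrocytes and the interferon response differed in the same contrast, with 0 of them called. Of the markers, 10 of 10 interferon genes, 8 of 8 microglia genes and 6 of 6 reactive astrocyte genes had higher means in the dorsal knockdown libraries than in controls, with medians of 2.46, 0.94 and 2.21 on the log2 scale. Summed over the list, interferon genes stood at 128.8 to 1368 CPM against 103.3 to 141.2 CPM, microglia genes at 400.8 to 982.8 CPM against 269.1 to 379.8 CPM, and reactive astrocyte genes at 906.1 to 4789 CPM against 400.7 to 646.4 CPM. Each of the 3 sums was highest in dorsal knockdown 3, the library in which 19 of 20 sterol genes were below their overall mean. In the dorsal libraries only 1 of these markers was at 0, a reactive astrocyte gene in dorsal control 1. Astrocyte markers summed to 2827 to 4853 CPM against 3588 to 5467 CPM and oligodendrocyte markers to 5000 to 8122 CPM against 2273 to 7436 CPM. The part of these cells in the sterol values was not tested.

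In ventral hippocampus the members lay on both sides of 0, and the counts moved with single libraries. The log2 fold change was below 0 in 18 of 34 members, where 51.8% of all genes were. These were 11 of 20 sterol genes, 4 of 8 fatty acid genes and 3 of 6 regulators. Medians were -0.01 over the sterol genes, 0.01 over the fatty acid genes and 0.05 over the regulators. Over all genes 0% were called by edgeR and 35 genes by DESeq2, the genes at an unadjusted p under 0.05 numbered 593 and 652 in these tools, and 0 members were called by either tool. At an unadjusted p under 0.05 in edgeR there were 0 members, where 2.46% of all genes were lower and 1.61% higher. The count of sterol genes below 0 was 3 without ventral control 1, 4 without ventral knockdown 4 and 16 without ventral knockdown 3. The count of fatty acid genes below 0 was 0 without ventral control 4, 1 without ventral knockdown 3 and 6 without any one of ventral control 3, ventral knockdown 2 and ventral knockdown 4. Members below 0 numbered 17 of 34 without the 3 libraries of smallest Rn45s share, where 52.8% of all genes were. In this contrast 7 of 7 choroid plexus, 9 of 10 oligodendrocyte and 8 of 10 interferon markers were below 0, with medians of -5.47, -0.35 and -0.82 (log2). For 0 of the 7 choroid plexus markers was every knockdown library below every control. Their sum was far higher in ventral control 4 than in any other ventral library, as given with Acacb below. Above 0 were 8 of 8 microglia, 6 of 6 reactive astrocyte and 5 of 9 astrocyte markers, with medians of 0.14, 0.36 and 0.07. Of these markers 0 were called, and their part in the members' values was not tested.

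Stard4 stood at 10.4, 9.03 and 8.83 CPM in ventral knockdown 2 to 4 and at 18.3, 9.72, 9.63 and 11.98 CPM in ventral controls 1 to 4. The groups overlapped, and the highest value was that of ventral control 1. In this region the log2 fold change was -0.40 (SE 0.35) with an adjusted p of 1 in edgeR, and -0.16 without ventral control 1. Mvk stood at 14.6, 25.9 and 18.8 CPM against 19.5, 16.9, 14.1 and 13.2 CPM. Here the sign was opposite to that in dorsal hippocampus, with a log2 fold change of 0.32 (SE 0.23), and of 0.08 without ventral knockdown 3. Pmvk stood at 23.6, 45.0 and 29.7 CPM against 30.4, 30.2, 30.8 and 25.8 CPM, and Tm7sf2 at 7.78, 18.7 and 14.1 CPM against 10.1, 14.3, 14.3 and 12.3 CPM. For both genes ventral knockdown 2 was the lowest and ventral knockdown 3 the highest library of the region.

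Hmgcs1 stood at 222.7, 251.7 and 158.4 CPM with the knockdown vector and at 316.5, 199.6, 165.0 and 196.9 CPM in ventral controls. Sqle stood at 55.6, 64.1 and 44.7 CPM against 80.5, 56.5, 41.0 and 47.6 CPM. Both were highest in ventral control 1, followed by ventral knockdown 3. Idi1, which isomerises isopentenyl diphosphate, had the smallest p among the sterol genes of this comparison and stood at 5.81, 4.15 and 2.39 CPM against 17.4, 4.09, 3.96 and 4.40 CPM. Its log2 fold change of -0.85 (SE 0.56, adjusted p 1 in edgeR) rested on ventral control 1 and was -0.02 without it. The reductase Dhcr7 at 0.31 (SE 0.21) and the isomerase Ebp at 0.30 (SE 0.24) were on the higher side and were chosen after their values were seen. Without ventral knockdown 3 these became 0.057 for Dhcr7 and 0.039 for Ebp.

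Among the regulators, Srebf2 stood at 173.8, 180.1 and 210.2 CPM with the knockdown vector and at 98.6, 141.5, 194.3 and 191.4 CPM in ventral controls, with a log2 fold change of 0.27 (SE 0.31), and of 0.095 without ventral control 1. Srebf1 stood at 56.5, 46.7 and 84.7 CPM against 23.5, 64.2, 59.8 and 122.9 CPM. Ventral control 1 was the lowest library for both SREBP genes. Insig1 stood at 48.9, 56.8 and 47.8 CPM against 45.9, 46.1, 24.9 and 49.6 CPM, and its log2 fold change of 0.30 (SE 0.23) came with 1 low control, ventral control 3, and was 0.12 without it. Insig2 had a log2 fold change of -0.32 (SE 0.26), of -0.11 without ventral knockdown 2 and of -0.58 without ventral knockdown 3. Without the 3 libraries of smallest Rn45s share it was -0.48 (SE 0.20, adjusted p 0.457 in edgeR).

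The ventral fatty acid genes overlapped between arms. Fasn stood at 264.5, 223.1 and 326.9 CPM with the knockdown vector and at 129.0, 264.8, 330.9 and 312.5 CPM in controls. Scd1 stood at 303.2, 116.7 and 195.8 CPM against 169.8, 221.8, 147.0 and 354.1 CPM, and Scd2 at 1393, 904 and 1254 CPM against 760.4, 1263, 1005 and 1746 CPM. For Fasn and Scd2 the lowest library was ventral control 1, and for Scd1 it was ventral knockdown 3. Fads2 stood at 166.9, 67.9 and 103.1 CPM against 136.7, 102.6, 91.7 and 105.8 CPM. Acacb stood at 7.41, 8.61 and 15.2 CPM against 5.79, 5.63, 13.1 and 37.1 CPM. Its log2 fold change of -0.58 (SE 0.52) turned to 0.33 without ventral control 4, the library with the highest Acacb level and with choroid plexus markers summing to 15330 CPM, against 33.5 to 618.7 CPM in the other ventral libraries. Whether choroid plexus tissue bears on Acacb was not tested.

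Between regions 0 members were called in either arm, and the side on which the sterol genes lay depended on single ventral libraries. In controls 14 of 34 members were lower in dorsal than in ventral hippocampus, where 56.4% of all genes were. These included 9 of 20 sterol genes, with a median of 0.01, and 3 of 8 fatty acid genes, with a median of 0.08. Over all genes 0% were called by edgeR and 13 genes by DESeq2, with 813 and 988 below an unadjusted p of 0.05. The 3 members Mvk, Pmvk and Srebf2 had every dorsal control above every ventral one, where 5.54% of all genes did. Among them were Mvk, with a log2 difference of 0.52 (SE 0.23, adjusted p 0.731 in edgeR), and Srebf2, with one of 0.67 (SE 0.31, adjusted p 0.731 in edgeR). Srebf2 in dorsal controls started at 226.9 CPM and in ventral controls ended at 194.3 CPM. Without ventral control 1, the library highest in sterol genes, 8 of 34 members and 2 of 20 sterol genes were lower in dorsal controls, the sterol median was 0.21 and the difference in Srebf2 was 0.49. Without the 3 libraries of smallest Rn45s share 7 of 34 members and 1 of 20 sterol genes were lower, where 53.7% of all genes were, with a sterol median of 0.22. The fatty acid count was 1 without ventral control 4, with a median of 0.25, and the median was -0.04 without ventral control 3. In the same contrast 10 of 10 interferon and 7 of 7 choroid plexus markers had lower means in dorsal controls, with medians of -1.84 and -3.60 (log2) and 0 of them called. Interferon markers summed to 103.3 to 141.2 CPM in dorsal and 124.9 to 805.1 CPM in ventral controls, and choroid plexus markers to 38.5 to 396.0 CPM and 33.5 to 15330 CPM. The choroid plexus sum of 15330 CPM was that of ventral control 4. In ventral control 1, 1 choroid plexus marker was at 0. The part of these markers in the values of the members was not tested.

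With the knockdown vector 27 of 34 members were lower in dorsal than in ventral hippocampus, where 52.1% of all genes were. These included 19 of 20 sterol genes, with a median of -0.25 against -0.01 over all genes, and 6 of 8 fatty acid genes, with a median of -0.19. Over all genes 0% were called by edgeR and 0 genes by DESeq2, with 317 and 391 below an unadjusted p of 0.05. Hsd17b7 was the 1 member at an unadjusted p under 0.05, where 0.892% of all genes were lower. It stood at 15.5, 17.6, 11.5 and 13.9 CPM in dorsal and at 22.9, 26.6 and 15.7 CPM in ventral knockdown libraries, with overlap from ventral knockdown 4. Its log2 difference was -0.57 (SE 0.26) with an adjusted p of 1 in edgeR. Without ventral knockdown 3, whose sterol genes were high, 11 of 20 sterol genes were lower and their median was -0.05. Without ventral knockdown 2 the count of fatty acid genes was 3 of 8 and their median turned to 0.09. Without the 3 libraries of smallest Rn45s share 20 of 34 members and 13 of 20 sterol genes were lower, where 47.8% of all genes were, with a sterol median of -0.15.

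Markers moved with the same contrast, with 0 of them called. Means were higher in the dorsal than in the ventral knockdown libraries for 10 of 10 interferon, 8 of 8 microglia, 10 of 10 oligodendrocyte, 6 of 6 reactive astrocyte and 7 of 7 choroid plexus markers, with medians of 1.71, 0.68, 0.40, 0.62 and 1.65 (log2). In the ventral knockdown libraries interferon markers summed to 181.3 to 551.6 CPM, microglia markers to 367.9 to 460.3 CPM, oligodendrocyte markers to 3140 to 5709 CPM, reactive astrocyte markers to 595.1 to 2101 CPM and choroid plexus markers to 42.3 to 57.8 CPM. The dorsal knockdown sums given above overlapped these ranges for the first 4 lists, and the dorsal choroid plexus sums were 82.3 to 271.1 CPM. Of these markers 2 choroid plexus genes were at 0 in ventral knockdown 2. Lower in dorsal libraries were 5 of 6 meningeal fibroblast, 6 of 8 neuron, 4 of 5 endothelial and 5 of 9 astrocyte markers. Their medians were -1.38, -0.26, -0.13 and -0.04 (log2). Of the oligodendrocyte precursor markers 4 of 5 were higher, with a median of 0.13. Whether these markers bear on the lower sterol values was not tested.

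The knockdown effect itself was also compared between regions. The dorsal minus ventral difference of log2 fold changes was below 0 in 25 of 34 members, where 45.1% of all genes were, with medians of -0.27 for the sterol and -0.22 for the fatty acid genes. The sterol median was -0.07 without ventral knockdown 3 and -0.50 without ventral control 1. Without ventral knockdown 2 the fatty acid median was 0.02, and the fatty acid genes below 0 numbered 3 of 8 in place of 7 of 8. With all libraries 15 of 20 sterol genes were below 0, and without the 3 libraries of smallest Rn45s share 20 of 20 were, as were 28 of 34 members and 46% of all genes. Over all genes 0% were called by edgeR and 9 genes by DESeq2, 0 of them members, with 672 and 778 below an unadjusted p of 0.05. Mvk had the smallest p of the members and differed by -0.72 (SE 0.33, adjusted p 0.998 in edgeR), from -0.40 in dorsal to 0.32 in ventral hippocampus, and by -0.48 without ventral knockdown 3. It was the 1 member at an unadjusted p under 0.05, where 1.82% of all genes were lower. For Srebf2 the difference was -0.73 (SE 0.44), and -0.37 without the 3 libraries. Markers of interferon (10 of 10, median 3.16), microglia (8 of 8, 0.87), oligodendrocytes (10 of 10, 0.61) and choroid plexus (7 of 7, 5.13) had differences above 0 (log2), with 0 called. The choroid plexus sum was far higher in ventral control 4 than in any other ventral library. The part of these markers in the members' differences was not tested. No member's knockdown effect was thus shown to differ between the regions. Averaged over both regions, 28 of 34 members were lower with the knockdown vector, where 47.6% of all genes were, and 24 of 34 without the 3 libraries, where 50.9% were. For this mean the count of sterol genes was 16 of 20, and 10 without ventral control 1, and that of fatty acid genes 8 of 8, and 4 without ventral control 4. In the mean 0% of all genes were called by edgeR and 4 genes by DESeq2, with 577 and 654 below an unadjusted p of 0.05. Stard4 was the 1 member at an unadjusted p under 0.05, where 1.74% of all genes were lower, with a mean log2 fold change of -0.70 (SE 0.25, adjusted p 1 in edgeR). The 6 comparisons share libraries, so they are not independent.

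The members also varied together between libraries of 1 group. Each gene's level was expressed as log2(CPM + 1) minus its mean over the 4 group means, and the median was taken over each branch. The sterol median ranged from -0.54 in dorsal knockdown 3 to 0.62 in ventral control 1. In dorsal knockdown 3, 19 of 20 sterol genes were below 0, with Ebp the exception, and in ventral control 1, 16 of 20 were above 0. Single genes reached a deviation of 1.90 for Idi1 in ventral control 1 and of -1.39 for Stard4 in dorsal knockdown 3. The dorsal controls had sterol medians of -0.15, 0.11 and 0.23, and the dorsal knockdown libraries -0.09, 0.02, -0.54 and -0.11, so the 2 groups overlapped. The fatty acid median ranged from -0.65 in dorsal knockdown 2, with 8 of 8 genes below 0, to 0.42 in ventral control 4, with 7 of 8 above 0. In ventral knockdown 3 also, 8 of 8 fatty acid genes were below 0, with a median of -0.39.

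**Figure D4:**
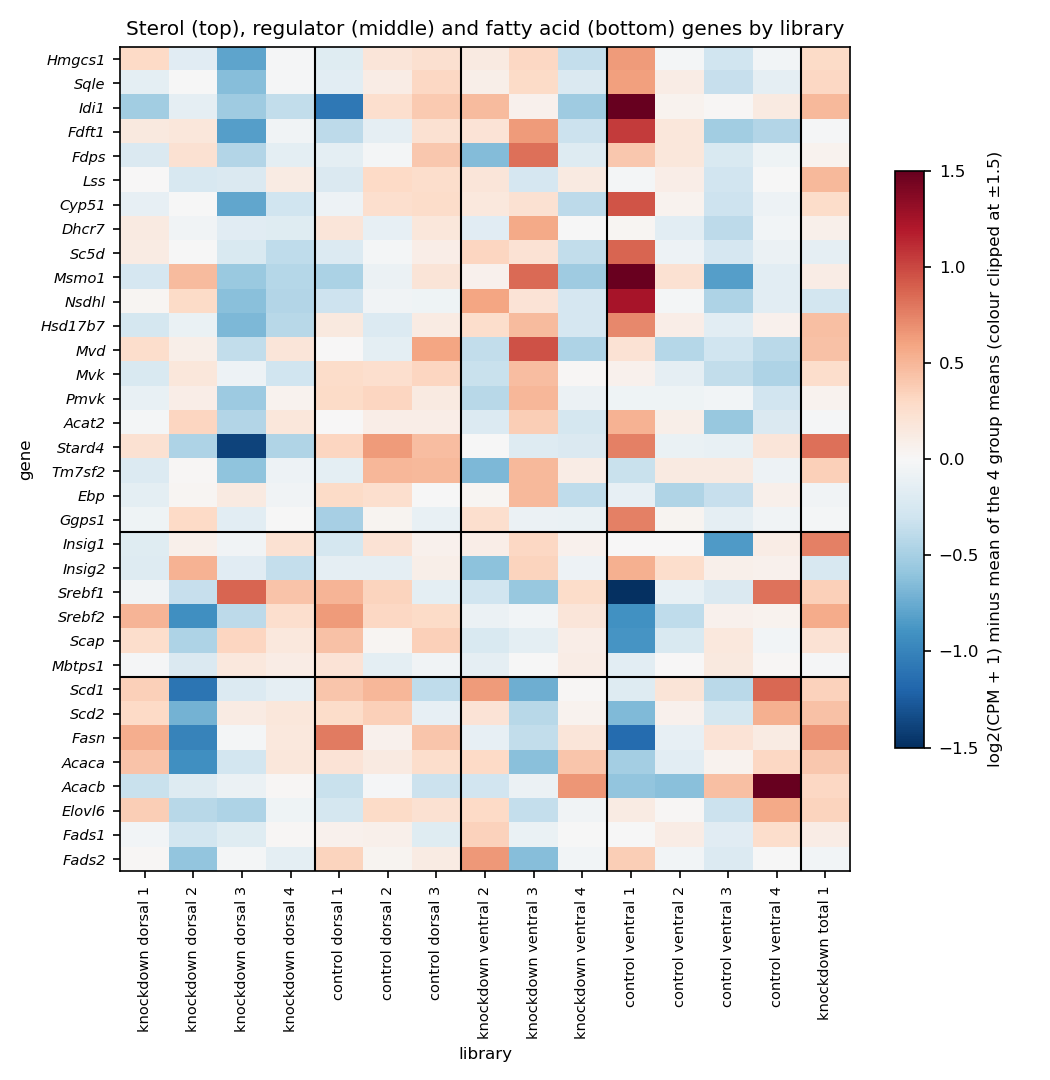
Deviation of each gene (rows) in each of 15 libraries (columns), as log2(CPM + 1) minus the mean of the 4 group means, with colour clipped at 1.5. The sterol rows are blue in 19 of 20 genes of dorsal knockdown 3 and red in 16 of 20 of ventral control 1, and the fatty acid rows are blue in 8 of 8 genes of dorsal knockdown 2 and ventral knockdown 3.

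The fatty acid median lay furthest below the sterol median in the 3 libraries of smallest Rn45s share. Dorsal knockdown 2, ventral knockdown 3 and ventral control 1 had fatty acid medians of -0.65, -0.39 and -0.35 with sterol medians of 0.02, 0.42 and 0.62. In the other 11 libraries the fatty acid median lay between -0.19 and 0.42 and the sterol median between -0.54 and 0.23. The median summed exon length was 5.95 kb for the fatty acid and 4.41 kb for the sterol genes, and the median GC content 50.8% and 49.4%. After the length and GC offsets the fatty acid medians of the 3 libraries were -0.25, -0.05 and -0.02, and the sterol medians -0.04, 0.33 and 0.43. The sterol median of dorsal knockdown 3 was -0.56 with the offsets, with 19 of 20 genes still below 0. The branches also parted outside the 3 libraries, in either direction. With the offsets the fatty acid median was -0.19 in dorsal knockdown 3. In ventral control 4 the offset medians were 0.30 for the fatty acid and -0.17 for the sterol genes. In dorsal control 3 the order was reversed, with -0.03 for the fatty acid and 0.26 for the sterol genes. Within groups the pooled SD of the library medians was 0.31 for the sterol and 0.33 for the fatty acid branch. This was larger in size than the dorsal medians of the log2 fold change. It is, however, the spread of single libraries and not the error of a difference between group means.

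**Figure D5:**
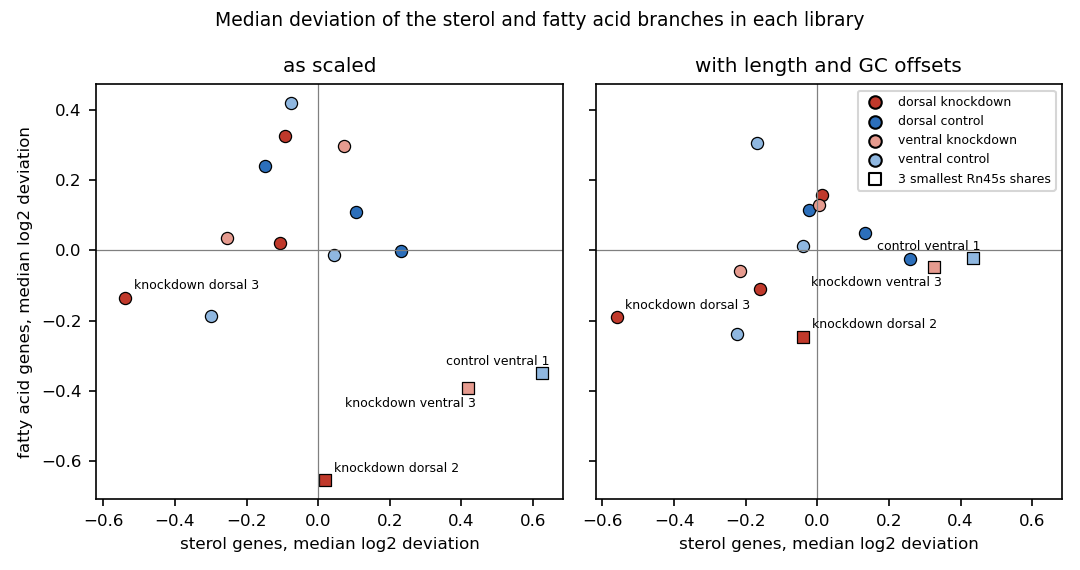
Median deviation of the 8 fatty acid genes against that of the 20 sterol genes in each of 14 libraries, as scaled (left) and with length and GC offsets (right), with squares for the 3 libraries of smallest Rn45s share. The squares lie lowest on the left and move towards 0 on the right, while dorsal knockdown 3 stays at the lowest sterol median.

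The knockdown library of total hippocampus had 25 of 34 members above the overall mean, with medians of 0.19 for the sterol and 0.34 for the fatty acid genes. Stard4 stood there at 19.3 CPM, above all 14 regional libraries. Insig1 at 78.0 CPM was likewise above every regional library, whose highest was 56.8 CPM. Acss2 stood at 58.1 CPM, above all dorsal knockdown libraries and within the range of the regional controls, 47.5 to 58.7 CPM. This single library has no replicate.

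A further 2 lists covered neighbouring genes of the pathway. Of 18 other synthesis and SREBP genes, 8 were lower with the knockdown vector in dorsal hippocampus and 0 were called, with a median of 0.05. Of 19 genes of cholesterol export and turnover, 12 were lower and 0 were called, with a median of -0.07. Rxra, the partner of the liver X receptors, stood at 43.1, 33.6, 31.7 and 33.4 CPM against 47.7, 56.6 and 57.8 CPM. Its groups did not overlap, and its log2 fold change was -0.61 (SE 0.23, adjusted p 0.955 in edgeR). Npc2, which carries cholesterol out of lysosomes, stood at 54.2, 89.2, 112.8 and 75.8 CPM against 56.2, 57.2 and 40.3 CPM, with a log2 fold change of 0.70 (SE 0.31, adjusted p 0.999 in edgeR). Acly, the ATP citrate lyase that makes acetyl-CoA from citrate, stood at 149.5, 108.6, 103.0 and 126.0 CPM against 139.5, 148.7 and 185.7 CPM, with overlap from dorsal knockdown 1 and a log2 fold change of -0.38 (SE 0.19, adjusted p 0.999 in edgeR).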

How the data were processed

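For 21 libraries of a directional kit, the authors deposited 1 table of raw read counts by gene. The submitters' processing notes name the mm10 genome, STAR 2.5.2a and HTSeq 0.6.1p1, and the sources used here do not state the strand setting. The 5 summary lines entered neither library sizes nor tests. Groups came from the sample titles. The 14 regional ethanol libraries with over 1000000 gene reads were fitted in 1 model of 4 group means with edgeR 4.0.16 in R 4.3.3, using filterByExpr (minimum count 10), TMM scaling and the robust quasi-likelihood F-test, with Benjamini-Hochberg adjustment over 14578 genes and calls at 0.05. Standard errors came from the F statistic. CPM are scaled by TMM, and deviations use a pseudocount of 1 CPM. Positions, exon lengths and GC come from GENCODE M21 and were read in Python 3.11.15. Of the tested genes, 96.9% had a length and GC value. Offsets were natural splines of both, per library.

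The members, their branches, the 2 pathway lists and the marker lists were chosen with earlier results of these data known. The value in every library is given for Acss2, for Srebf1, Srebf2, Insig1, Hmgcs1, Sqle, Fasn, Scd1 and Scd2, for any member called, and for the 4 sterol and 3 fatty acid members with the smallest p in either knockdown comparison. From the pathway lists the 3 genes with the smallest dorsal p are named. Alternatives were DESeq2 1.42.0, RLE scaling, no filter on counts, a block on replicate number, fits of only 2 groups, all libraries and each library left out. Leaving out 3 libraries together and the offsets were chosen after seeing the data. The fit was tested on simulated counts.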

Additional observations from a re-analysis of the deposited data

Results flagged for a closer look

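Each of the 34 members was examined in the groups of 4 libraries for a single library far from the other 3, by Dixon's ratio. Of 68 such sets 7 stood out, where chance would give about 3.4. Ventral control 1 was the library in 4 of them: Idi1 at 17.4 CPM (others 3.96 to 4.40), Sc5d, a sterol desaturase, at 87.4 CPM (others 39.3 to 44.8), Nsdhl, a sterol dehydrogenase, at 47.4 CPM (others 13.9 to 19.2) and Ggps1 at 51.0 CPM (others 27.2 to 30.7). This library also had the smallest Rn45s share. Insig2 stood at 59.8 CPM in dorsal knockdown 2 (others 32.0 to 36.6), Insig1 at 24.9 CPM in ventral control 3 (others 45.9 to 49.6) and Pmvk at 25.8 CPM in ventral control 4 (others 30.2 to 30.8).

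Reads of the 34 members were also present in libraries that entered no comparison. There were 17 such reads in dorsal knockdown 5 and 36 in ventral knockdown 1, both shallow, and the untreated libraries held 76 in dorsal knockdown 1, 76 in dorsal control 1 and 312 in dorsal control 2. These counts lie above the limit of 3 that a count of 0 allows, and are too few for a value per gene.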

How the results depend on the processing

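Of 1377 values recomputed for 85 results, 35 were counts that moved by over 1.5 times, or between 0 and another number. A further 11 were fold changes of named genes that changed sign. The other 1331 were counts that moved less or fold changes that kept sign and side of the threshold. They also include branch medians that moved by less than the SD between libraries. That SD was larger in size than every main branch median, so a median could change sign and still be included. The fatty acid median of dorsal against ventral knockdown libraries did, from -0.19 to 0.09 without ventral knockdown 2. In each alternative tried, 0 members were called. Over all genes, DESeq2 called 11 (dorsal knockdown), 35 (ventral knockdown), 13 (regions in controls), 9 (difference between regions) and 4 (mean of both). All libraries together gave 1 call in the ventral comparison and 1 in the difference between regions. Without the 3 libraries of smallest Rn45s share there were 7, 12, 6 and 3 calls in the ventral, control, difference and mean comparisons. Leaving out single libraries gave 0 to 8, 0 to 6, 0 to 2 and 0 to 2 in these 4, the most without ventral control 1 or, for the difference, ventral knockdown 3. Insig2 in dorsal hippocampus turned to -0.19 without the 3 libraries and -0.13 with the length and GC offsets, and Scd2 to 0.012 without the 3. Leaving out single dorsal libraries gave -0.18 (without dorsal knockdown 2) to 0.15 for Insig2, -0.29 to 0.021 (without dorsal knockdown 2) for Scd2 and -0.21 (without dorsal knockdown 3) to 0.23 for Srebf1, which was also -0.11 without dorsal control 3. Leaving out single ventral libraries gave -0.60 to 0.005 (without ventral knockdown 2) for Acss2 and -0.95 to 0.33 (without ventral control 4) for Acacb. The cause of these changes was not tested.

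Of 18 pairs of libraries with the same replicate number in different groups, 6 had correlated deviations above 0.1 (range -0.27 to 0.43). Pairs of different number were not compared, so these values cannot decide whether libraries of the same number belong together. The numbers were not treated as pairs in the main fit. With the replicate number as a block, 0 genes were called in each comparison, 28 of 34 members and 15 of 20 sterol genes were lower in dorsal hippocampus, and Acacb and Srebf1 turned to -0.20 each.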
